A study of Mus musculus with 12 samples.

Results

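The 47 genes described here encode the degradative enzymes of the lysosome, the proton pump that acidifies it, membrane proteins and cofactors that work beside them, and 3 transcription factors that act on many lysosomal genes. They are a list of named genes, found in the deposited count table by gene identifier with the version ignored and kept where at least 10 counts were present in 3 or more libraries. All 47 met that rule, out of 19123 genes that did so and 55421 in the table, and all 47 were among the 18842 genes tested. By role they fall into a group of 11 made up of the cathepsins and legumain, 12 other hydrolases, 6 membrane proteins and cofactors, the 3 transcription factors, and 15 genes of the proton pump, of which 5 belong to its V0 sector, 8 to its V1 sector and 2 are accessory. The count rule used no difference between groups of samples, but the genes were listed with earlier results of these data known.

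Lysosomal hydrolases are made as precursors, sorted to the lysosome and work best at acid pH. The acid comes from the vacuolar ATPase, whose V0 sector carries protons across the membrane and whose V1 sector splits ATP in the cytosol, and the sectors assemble or come apart with the nutrient state of the cell. Tfeb, Tfe3 and Mitf are related basic helix-loop-helix factors that bind E-box-like elements in lysosomal promoters, and their activity is set largely by phosphorylation and entry into the nucleus, which RNA levels do not show. Microglia are macrophages that reside in the brain, and their lysosomes digest what they engulf.

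RNA was sequenced from microglia that were sorted by fluorescence from dissociated mouse brain and then cultured. The mice were all labelled male, with an age of postnatal day 35 to 40 in the sample fields and 30 to 45 in the extraction protocol. WT denotes the genotype Cx3cr1EGFP and KO the genotype Slc2a5-/-::Cx3cr1EGFP, so both carried the EGFP reporter of Cx3cr1, a gene of microglia and other macrophages, and the knockouts also lacked Slc2a5, the gene of a fructose transporter (GLUT5). All cells went through 6 h without oxygen and glucose (oxygen-glucose deprivation, OGD), which models a stroke in culture, and were taken at its end (WT-OGD and KO-OGD) or after a further 24 h of recovery (WT-recovery and KO-recovery), with 3 libraries in each of the 4 groups. No library of cells without OGD was analysed here. The labels do not say that replicates were separate animals or cultures, so the p-values measure the spread between these libraries, which may be technical. WT-recovery replicate 1 was placed by its title, while its treatment field names OGD without recovery.

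Total counts ranged from 31509859 to 45347118 in the OGD libraries and from 9885259 to 19915479 in the recovery libraries, and the mitochondrial genome took 4.20% to 5.75% and 4.72% to 18.4% of them. Slc2a5 itself was low, at 45, 40 and 58 counts (WT-OGD) and 17, 4 and 17 counts (KO-OGD), and at 0 to 2 counts in each recovery library, so after recovery it does not check the genotype. Of 13 microglia markers, 12 were tested, and Siglech was at 0 counts in 9 of the 12 libraries. Csf1r, a receptor that microglia need, lay at 647 to 996 CPM in all libraries, whereas Tmem119 stood at 0.0295 to 0.263 CPM in the OGD libraries. Xist, which is transcribed from the inactive X chromosome, was at 0, 3 and 0 counts in WT-recovery and at 4101 to 10232 in the other libraries although all mice were labelled male. Genotype and sex therefore cannot be told apart after recovery, nor recovery and sex in WT, and the interaction of genotype and recovery shares this limit. The other groups differed in Xist too, at 150.8 to 159.3 CPM in WT-OGD, 231.3 to 244 in KO-OGD and 312 to 353.9 in KO-recovery. What this difference means for KO against WT after OGD, and for the recovery change in KO, was not tested. KO-recovery replicates 1 and 3 held transcripts of muscle, cartilage and connective tissue, with the summed level of 8 such markers at 274 and 235 CPM against 16.0 in replicate 2.

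The promoters of several members hold the E-box palindrome CACGTG that factors of the Tfeb family bind, and these sequences are shown because the members they precede differ in what they did. Windows of 300 bases, from 250 before to 50 after the transcription start, were taken from RefSeq (GRCm38.p6) and were present for 39 of the 47 members. CACGTG, which reads the same on both strands, was found in at least 1 window of 14 of these 39 genes (35.9%), against 2187 of 27025 genes (8.09%) over all promoters. Its longer form TCACGTGA, which contains CACGTG, was found in 6 of 39 members (15.4%) and in 304 of 27025 genes (1.12%). With a further G before and C after it, it was found in 0 of 39 members and in 100 of 27025 genes (0.37%). The 27025 genes were taken with no rule on counts, whereas every member met the count rule. The share among genes that met it was not computed, so the gap cannot be laid to lysosomal genes alone. The 6 members with TCACGTGA are given below as stretches of 30 bases on the strand of the gene, with TCACGTGA in capitals, and Ctsa holds it at 2 places whose stretches overlap.
Ctsa, chr2:164833749-164833778: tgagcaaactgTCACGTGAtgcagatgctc
Ctsa, chr2:164833766-164833795: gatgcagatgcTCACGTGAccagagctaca
Ctsd, chr7:142387908-142387937: tcgcccgcgtcTCACGTGAcccgttgaggg
Mcoln1, chr8:3500462-3500491: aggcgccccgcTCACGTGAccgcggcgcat
Atp6v0d1, chr8:105566050-105566079: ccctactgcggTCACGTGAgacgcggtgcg
Atp6v1a, chr16:44139373-44139402: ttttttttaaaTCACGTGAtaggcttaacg
Atp6v0e, chr17:26676387-26676416: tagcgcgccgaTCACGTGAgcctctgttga
The stretches of Ctsa, Ctsd, Mcoln1 and Atp6v0e overlap an annotated exon of the same gene, and those of Atp6v0d1 and Atp6v1a overlap none. Of these 6 genes, 3 fell, 1 rose and 2 did not pass the test on recovery in WT, and 4 fell, 1 rose and 1 did not pass in KO. Over all genes tested, 29.9% fell and 26.9% rose in WT, and 29.6% and 29.3% in KO. Lamp1 is shown too, because its promoter holds CACGTG 4 times, in capitals in the 250 bases before its start, which overlap no annotated exon.
Lamp1, chr8:13158911-13159160: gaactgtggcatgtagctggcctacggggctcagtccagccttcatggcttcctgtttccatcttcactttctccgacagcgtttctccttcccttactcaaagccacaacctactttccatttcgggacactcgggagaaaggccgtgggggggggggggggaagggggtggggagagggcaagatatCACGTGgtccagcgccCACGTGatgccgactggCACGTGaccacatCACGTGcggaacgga
A match is a string of letters and was not tested for binding. Among the 14 genes with CACGTG the median log2 fold change on recovery was -0.20 in WT and -0.28 in KO, and among the 25 without it -0.12 and -0.18, which is a description with no test.

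Lysosomal genes made up a large part of the RNA in these cells. The 47 members took 8.68% to 8.79% of all counts in WT-OGD, 9.13% to 9.89% in KO-OGD, 6.48% to 6.85% in WT-recovery and 6.98% to 7.93% in KO-recovery. A few genes weigh heavily in this share. In WT-OGD the means of Ctsd, Psap and Ctsb were 24920, 15570 and 11750 CPM, beside 83240 summed over all members. Levels between genes are compared per length, as CPM, the counts scaled to library size, per kilobase of exon (CPM per kb), and on that scale WT-OGD means ran from 8.39 for Ctsf to 10600 for Ctsd. Ctsd, the aspartic protease cathepsin D, was highest of its group at 10600 ± 284 CPM per kb in WT-OGD (SD, n = 3), but its exons overlap Gm49369 on the same strand, whose counts were 82.5% to 91.7% of those of Ctsd, so its level is uncertain. Psap, the precursor of the saposins that present lipids to hydrolases, followed at 5674 ± 207 CPM per kb. The next were Ctss at 2893 ± 45.6 and Ctsb at 1942 ± 15.8 CPM per kb, cysteine proteases that are abundant in macrophages. Hexa, which takes part in ganglioside degradation, led the other hydrolases at 528 ± 25.9 CPM per kb. In the pump, the V0 subunit Atp6v0d2 led at 644 ± 38.3, the V1 subunit Atp6v1b2 stood at 184 ± 2.06 and the accessory Atp6ap1 at 158 ± 3.94 CPM per kb. The 3 transcription factors were near the bottom, at 9.01 ± 0.59 for Tfeb, 9.48 ± 0.64 for Mitf and 10.5 ± 0.29 CPM per kb for Tfe3, where Tfeb and Mitf did not differ beyond their spread.

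The first question was what the cells' lysosomal genes did between the end of OGD and 24 h of recovery. In WT, 10 of the 47 members rose and 21 fell, against 56.8% of all genes tested that changed in either direction, 26.9% upwards and 29.9% downwards (edgeR's quasi-likelihood test with Benjamini-Hochberg adjustment over 18842 genes, called below 0.05, as for every adjusted p here). In KO, 7 rose and 25 fell, against 59% of all genes, 29.3% upwards and 29.6% downwards. The median log2 fold change of the members was -0.15 in WT and -0.33 in KO, beside -0.03 and 0.0 over all genes tested. All recovery libraries lay above all OGD libraries in CPM for 12 members and below for 22 in WT, against 67.1% of all genes without overlap, 31.6% above and 35.5% below. In KO the counts were 7 and 26, against 61.2%, 29.9% and 31.3%. Both genotypes were called the same way for 26 members, 7 upwards and 19 downwards. No member was called in opposite directions, and 10 members passed in neither. These counts were not made over all genes, so the agreement cannot be called particular to the members. The recovery libraries were the shallower ones, and with all libraries thinned to equal depth 30 members were called in WT and 31 in KO. In WT 22 of the 31 calls held in all 23 alternatives, and those of Atp6v1b2, Atp6v1e1, Ctsf, Hexa, Lamp1, Mitf, Naglu, Neu1 and Tpp1 were lost in at least 1. In KO 24 of the 32 held, and those of Atp6v0d1, Atp6v0e, Ctsh, Ctsl, Gusb, Ppt1, Smpd1 and Tfeb were lost in at least 1.

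Markers of cell types moved between OGD and recovery too. The summed level of the microglia markers was 3302 to 3347 CPM in WT-OGD and 5496 to 6705 in WT-recovery, with 8 of 12 tested called higher and 3 lower in WT, and 7 and 3 in KO. The neutrophil markers summed to 21.7 to 30.6 CPM in WT-OGD and 371 to 515 in WT-recovery, with 2 of 2 tested higher in both genotypes. Of the 6 listed, Ly6g was at 0 in all 12 libraries. S100a9 and Retnlg were at 0 in every library but KO-recovery replicates 1 and 3, so the rise was not shared by the whole list. The monocyte markers went from 39.4 to 47.8 CPM up to 283 to 352 in WT (4 of 4 tested higher in both genotypes). Of the 6 listed, Plac8 was at 0 in every library but KO-recovery replicates 1 and 3. Ly6c2 was at 0 in WT-OGD replicates 2 and 3, KO-OGD replicates 1 and 3 and WT-recovery replicate 1. The oligodendrocyte markers went from 53.4 to 53.7 CPM up to 162 to 219 in WT (7 of 7 higher in WT and 6 of 7 in KO). The part of these markers in the recovery changes of the members was not tested. In bulk RNA, fewer cells of a type and less RNA per cell cannot be told apart.

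**Figure D1:**
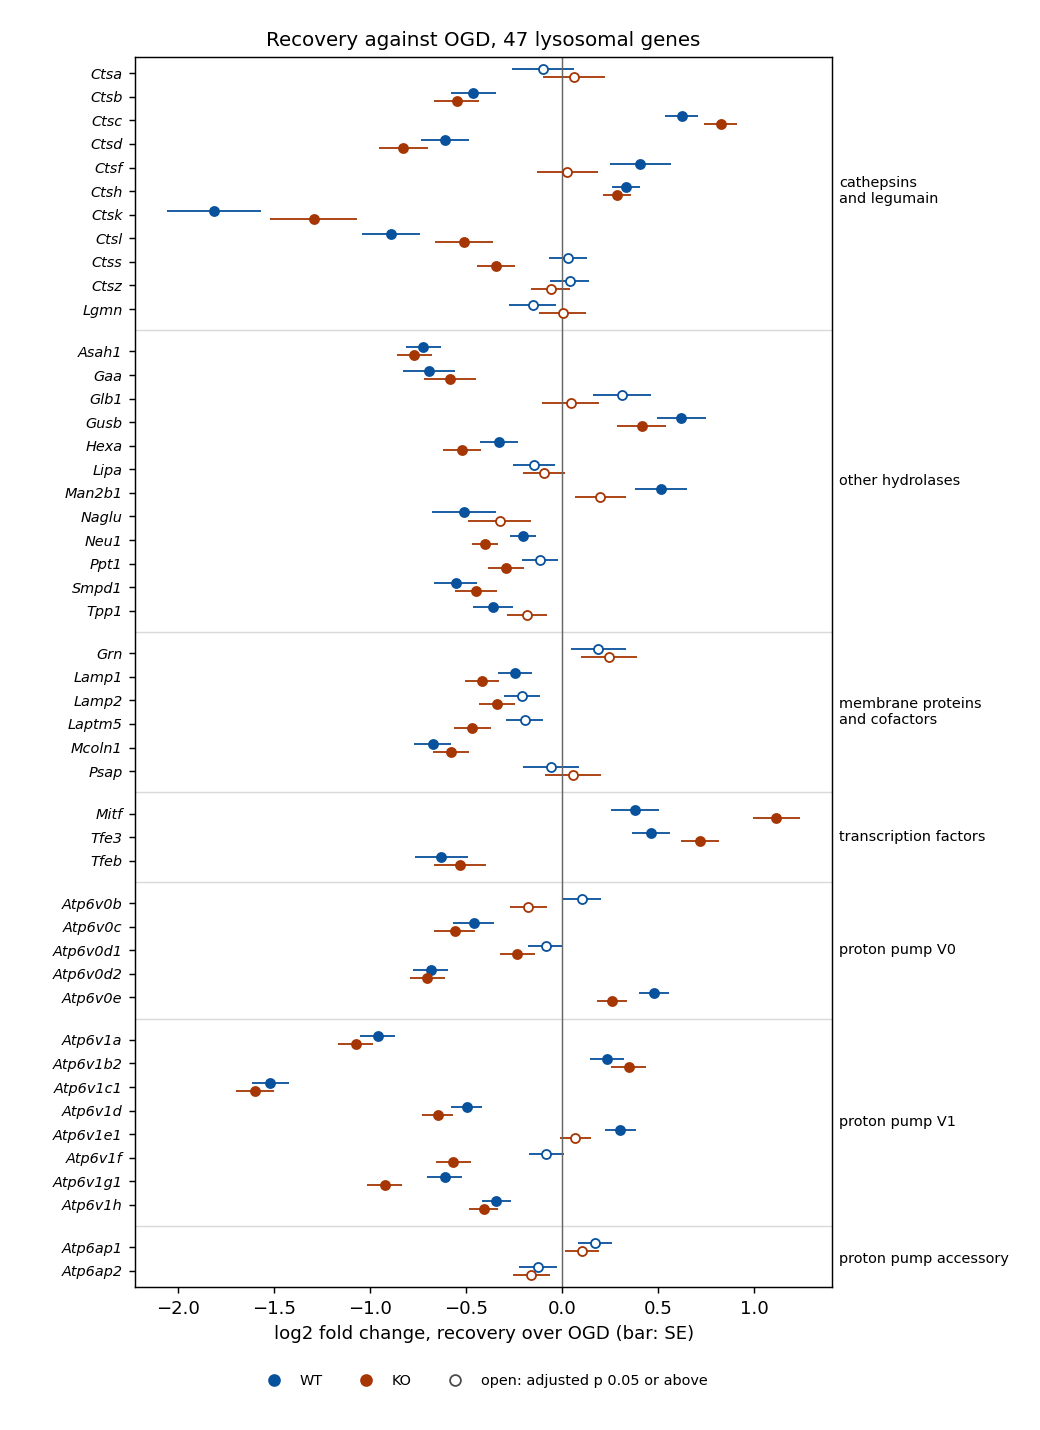
Log2 fold change of recovery over OGD for each of the 47 genes, in rows by role, in WT (blue) and KO (brown), with bars of 1 standard error and filled points where the adjusted p was below 0.05. Most points lie left of 0 in both genotypes, and Ctsk and Atp6v1c1 lie farthest to the left, while Ctsc, Gusb, Mitf and Tfe3 lie to the right.

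The 3 transcription factors did not move together on recovery: Tfeb fell while Tfe3 and Mitf rose, in both genotypes. Tfeb (chromosome 17, 47737030 to 47792419, GRCm38), the best known activator of lysosomal genes, stood at 48.9, 49.4 and 54.9 CPM (WT-OGD), 58.8, 51.2 and 53.1 (KO-OGD), 37.1, 36.8 and 25.6 (WT-recovery) and 31.4, 44.3 and 37.8 CPM (KO-recovery). Every recovery library was below every OGD library. Its log2 fold change was -0.63 ± 0.14 (SE) in WT (edgeR adjusted p = 0.00128) and -0.53 ± 0.14 in KO (adjusted p = 0.00360). With KO-recovery replicates 1 and 3 left out, the change in KO was -0.32 with an edgeR adjusted p of 0.145.

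Tfe3 (chromosome X, 7762560 to 7775202) stood at 94.6, 97.6 and 99.96 CPM (WT-OGD), 102.6, 111.4 and 108.5 (KO-OGD), 140.1, 127.9 and 135.3 (WT-recovery) and 174.6, 207.5 and 148.5 CPM (KO-recovery). The 4 groups did not overlap, in this order. Tfe3 rose by 0.46 ± 0.10 on the log2 scale in WT (edgeR adjusted p = 0.00105) and by 0.72 ± 0.10 in KO (adjusted p = 1.98e-05). Mitf (chromosome 6, 97807052 to 98021349), the founding member of the family and known from osteoclasts and pigment cells, stood at 63.1, 55.2 and 57.9 CPM (WT-OGD), 56.05, 74.95 and 56.1 (KO-OGD), 75.6, 72.7 and 80.9 (WT-recovery) and 113.8, 136.6 and 154.9 CPM (KO-recovery). After recovery the KO libraries all lay above the WT libraries, and the OGD groups overlapped each other. Mitf rose by 0.38 ± 0.12 in WT (edgeR adjusted p = 0.0172) and by 1.12 ± 0.12 in KO (adjusted p = 2.22e-06).

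**Figure D2:**
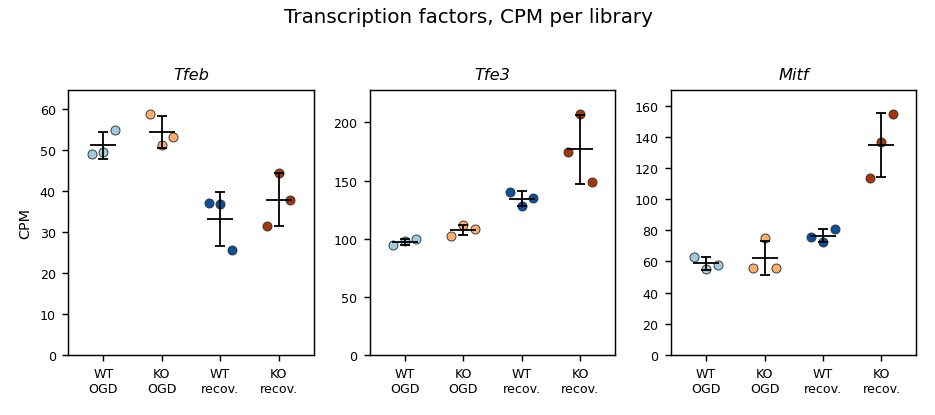
CPM of Tfeb, Tfe3 and Mitf in each of the 12 libraries (points), with the mean and SD of each group in black and the axis starting at 0. Tfeb is lower in all 6 recovery libraries than in all 6 OGD libraries, Tfe3 is higher, and Mitf is highest in the 3 KO-recovery libraries.

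Among the 11 cathepsins and legumain, 3 rose and 4 fell on recovery in WT, close to the shares of all genes tested (26.9% and 29.9%). In KO 2 rose and 5 fell, against 29.3% and 29.6% of all genes. Ctsb, Ctsd, Ctsk and Ctsl fell in both genotypes and Ctsc and Ctsh rose in both. Ctsf, a cysteine protease, was called higher only in WT and Ctss, a cysteine protease that stays active near neutral pH, lower only in KO; the differences between genotypes in these changes did not pass the interaction test (-0.38 and -0.38, edgeR adjusted p = 0.36 and 0.13). Ctsa, Ctsz and the asparaginyl protease Lgmn passed in neither, with log2 changes between -0.15 and 0.06.

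Ctsk (chromosome 3, 95499256 to 95509362), the collagen-degrading protease of osteoclasts, fell the most of the 11. It stood at 52.55, 59.3 and 48.5 CPM (WT-OGD), 77.1, 67.6 and 74.97 (KO-OGD), 20.3, 13.4 and 12.9 (WT-recovery) and 37.97, 17.6 and 33.0 CPM (KO-recovery). All recovery libraries lay below all OGD libraries, by -1.81 ± 0.25 in WT (edgeR adjusted p = 7.06e-05) and -1.29 ± 0.23 in KO (adjusted p = 4.67e-04) on the log2 scale. Of the 7 osteoclast markers, which include Ctsk, 6 were tested, and 3 were called higher and 1 lower on recovery in WT, so Ctsk moved against the others that passed.

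Ctsl, a cysteine endopeptidase, stood at 3779, 3942 and 4077 CPM (WT-OGD), 4655, 4632 and 4846 (KO-OGD), 2705, 1918 and 1751 (WT-recovery) and 3276, 3903 and 2738 CPM (KO-recovery). In each genotype the recovery libraries lay below the OGD libraries. Its log2 change was -0.89 ± 0.15 in WT (edgeR adjusted p = 1.38e-04) and -0.51 ± 0.15 in KO (adjusted p = 0.00860), and the latter was -0.30 with an edgeR adjusted p of 0.209 without KO-recovery replicates 1 and 3. Exons of Ctsl overlap Gm49230 on the same strand and Gm47123 on the other.

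Ctsd went from 25440, 25160 and 24170 CPM in WT-OGD to 17870, 16130 and 14980 in WT-recovery, and from 27600, 31820 and 29460 in KO-OGD to 16610, 19630 and 13940 in KO-recovery. The groups did not overlap within either genotype. The log2 changes were -0.61 ± 0.13 (edgeR adjusted p = 7.03e-04) and -0.82 ± 0.13 (adjusted p = 4.75e-05). With Gm49369 left out of the table they were -0.60 and -0.81. That omission leaves the counts of Ctsd as they were, so it cannot check the effect of the overlap.

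Ctsc, the dipeptidyl peptidase that activates serine proteases, moved the other way. It stood at 424.4, 372.5 and 419.5 CPM (WT-OGD), 339.7, 368.8 and 351.3 (KO-OGD), 588.5, 669.4 and 613.7 (WT-recovery) and 615.7, 606.3 and 655.7 CPM (KO-recovery). Every recovery library was above every OGD library, and Ctsc rose by 0.62 ± 0.08 in WT (edgeR adjusted p = 1.83e-05) and by 0.82 ± 0.08 in KO (adjusted p = 9.42e-07).

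**Figure D3:**
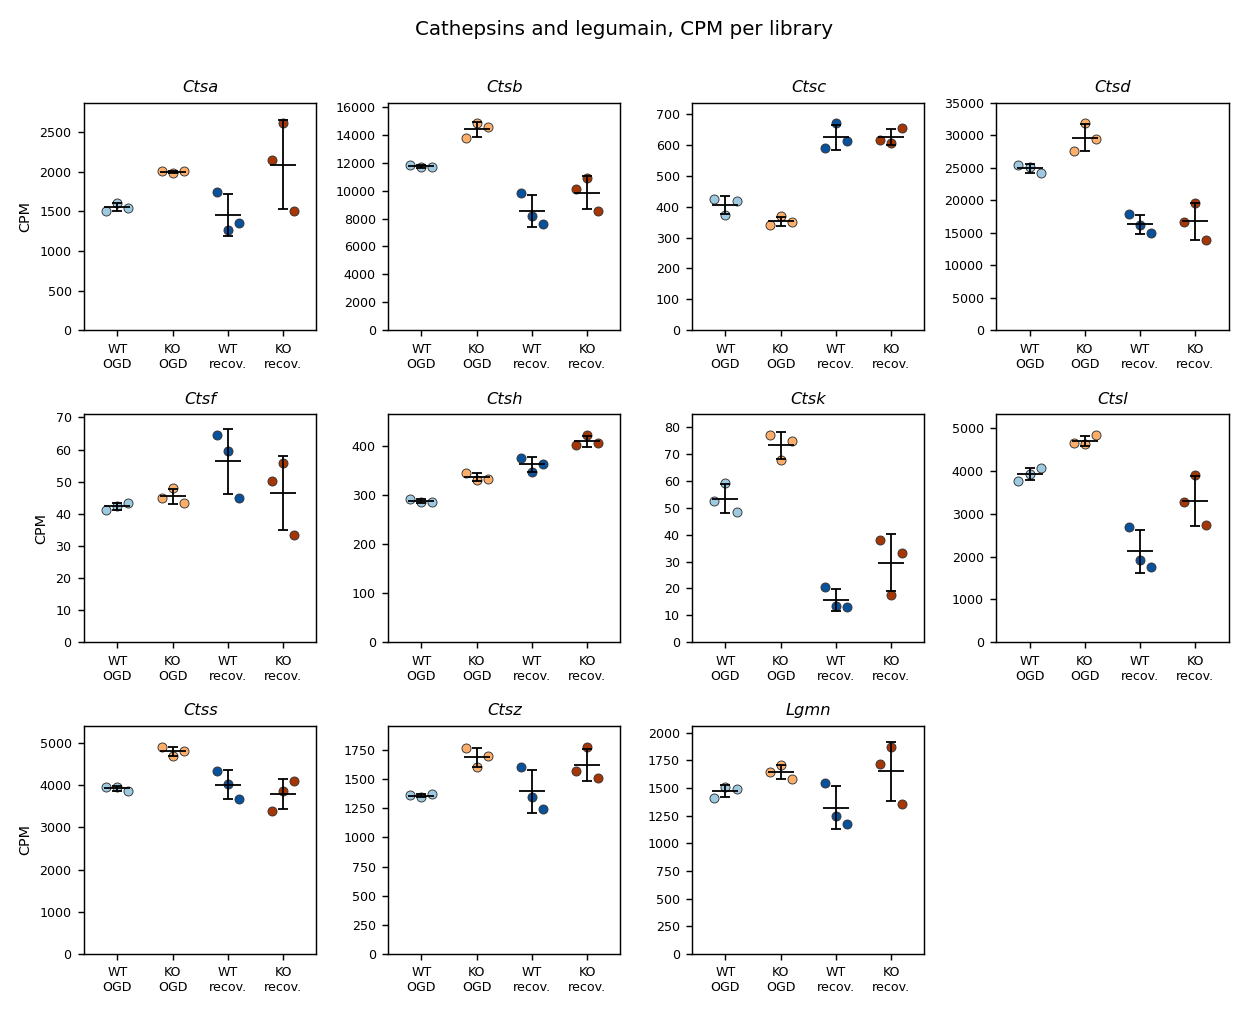
CPM of the 10 cathepsins and legumain (Lgmn) in each library (points), with group mean and SD in black, on separate axes that start at 0. Ctsk, Ctsl, Ctsb and Ctsd are lower after recovery in both genotypes and Ctsc is higher, while Ctsa, Ctsz and Lgmn are spread widely within the recovery groups.

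Of the 12 other hydrolases, 2 rose and 7 fell on recovery in WT, against 26.9% and 29.9% of all genes tested. In KO 1 rose and 6 fell, against 29.3% and 29.6%. Asah1, the acid ceramidase, stood at 465.8, 468.4 and 445.9 CPM (WT-OGD), 456.9, 528.2 and 460.2 (KO-OGD), 276.5, 293.7 and 266.9 (WT-recovery) and 268.4, 266.7 and 313.6 CPM (KO-recovery). The OGD and recovery libraries did not overlap, and it fell by 0.72 ± 0.09 in WT (edgeR adjusted p = 7.42e-06) and by 0.77 ± 0.09 in KO (adjusted p = 3.42e-06) on the log2 scale. Gaa, the acid alpha-glucosidase that degrades glycogen, went from 119.9, 115.3 and 125.9 to 95.8, 67.4 and 61.2 CPM in WT and from 137.5, 140.6 and 125.3 to 78.5, 91.4 and 99.5 in KO. Both falls were without overlap, by 0.69 ± 0.14 (edgeR adjusted p = 4.93e-04) and 0.58 ± 0.13 (adjusted p = 0.00167).

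Hexa stood at 1017, 1113 and 1031 CPM (WT-OGD), 1313, 1332 and 1293 (KO-OGD), 833.8, 841.7 and 840.8 (WT-recovery) and 960.1, 1020 and 770.9 CPM (KO-recovery). Its log2 change was -0.33 ± 0.10 in WT (edgeR adjusted p = 0.0102) and -0.52 ± 0.10 in KO (adjusted p = 3.71e-04), and in WT it did not pass when WT-OGD replicate 2 was left out. Smpd1, the acid sphingomyelinase, and Neu1, the sialidase, fell in both genotypes, by 0.20 to 0.55 on the log2 scale, though the WT call of Neu1 was lost in 6 of 23 alternatives and the KO call of Smpd1 without KO-recovery replicates 1 and 3. Gusb, the beta-glucuronidase, rose in both. It went from 335.3, 304.2 and 340.5 to 587.6, 498.6 and 420.1 CPM in WT (0.62 ± 0.13, edgeR adjusted p = 7.27e-04) and from 315, 417 and 312.9 to 446.5, 449.5 and 497.2 in KO (0.41 ± 0.13, adjusted p = 0.0113). No recovery library of Gusb lay below an OGD library of its genotype, though in KO it did not pass with KO-OGD replicate 1 or 3 left out, or with KO-recovery replicates 1 and 3 left out.

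The rest of the hydrolases split by genotype or did not pass. Man2b1, the lysosomal alpha-mannosidase, was called higher only in WT (0.52), with WT-recovery replicate 1 at 1162 CPM and the other 2 at 781.7 and 776.4. Naglu, of heparan sulfate degradation, and Tpp1, a tripeptidyl peptidase, were called lower only in WT (-0.51 and -0.36), and Ppt1, which removes palmitate from proteins, only in KO (-0.29). None of these 4 passed the interaction test, where their log2 values lay between -0.32 and 0.18. Glb1, the beta-galactosidase, and Lipa, the acid lipase, passed in neither genotype.

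Of the 6 membrane proteins and cofactors, 2 fell in WT and 4 in KO, against 29.9% and 29.6% of all genes tested. None rose, against 26.9% in WT and 29.3% in KO. Mcoln1, the calcium channel of the lysosomal membrane, stood at 109.5, 111.8 and 112.2 CPM (WT-OGD), 119.5, 121.5 and 117.7 (KO-OGD), 77.75, 62.5 and 69.45 (WT-recovery) and 83.7, 87.6 and 69.0 CPM (KO-recovery). All recovery libraries were below all OGD libraries, by -0.67 ± 0.09 in WT (edgeR adjusted p = 2.55e-05) and -0.58 ± 0.09 in KO (adjusted p = 8.82e-05). Lamp1, the abundant coat glycoprotein whose promoter is printed above, went from 2363, 2373 and 2215 to 1865, 2076 and 1925 CPM in WT and from 2525, 2835 and 2586 to 1959, 1983 and 2014 in KO. The groups did not overlap and the log2 changes were -0.24 ± 0.09 (edgeR adjusted p = 0.0259) and -0.42 ± 0.09 (adjusted p = 7.88e-04), the former lost in 6 of the 23 alternatives. Laptm5, a lysosomal membrane protein of blood cells, went from 1344, 1602 and 1382 to 1039, 997.3 and 1096 CPM in KO (-0.47 ± 0.10, edgeR adjusted p = 6.95e-04), and Lamp2 fell by 0.34 there. Psap, with 15520, 15030 and 16160 CPM (WT-OGD), 18570, 19440 and 18880 (KO-OGD), 18350, 13950 and 12600 (WT-recovery) and 20180, 23010 and 15910 CPM (KO-recovery), and Grn, the progranulin precursor, passed in neither genotype. In both recovery groups the libraries of Psap spread on either side of the OGD libraries.

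The proton pump changed unevenly, and the V1 sector held the largest fall of the pump. Of its 8 members, 2 rose and 5 fell in WT, against 26.9% and 29.9% of all genes tested. In KO 1 rose and 6 fell, against 29.3% and 29.6%. Atp6v1c1 (chromosome 15, 38661933 to 38692446), the subunit C that links V1 to V0, stood at 559.7, 591.2 and 498.8 CPM (WT-OGD), 569.1, 524.0 and 606.6 (KO-OGD), 190.7, 194.8 and 190.9 (WT-recovery) and 168.4, 183.7 and 208.8 CPM (KO-recovery). The highest recovery library lay far below the lowest OGD library, and the log2 change was -1.52 ± 0.10 in WT (edgeR adjusted p = 8.44e-09) and -1.60 ± 0.10 in KO (adjusted p = 3.76e-09). Atp6v1a (chromosome 16, 44085402 to 44139705), the catalytic subunit A, stood at 759.6, 748.9 and 662.1 CPM (WT-OGD), 720.1, 811.9 and 727.4 (KO-OGD), 381.1, 373.1 and 362.0 (WT-recovery) and 339.7, 344.4 and 389.8 CPM (KO-recovery). Again no libraries overlapped, and the change was -0.96 ± 0.09 in WT (edgeR adjusted p = 4.05e-07) and -1.07 ± 0.09 in KO (adjusted p = 1.04e-07).

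Atp6v1b2, the subunit B that forms the ATP-splitting ring together with A, rose instead. It stood at 986.6, 965.9 and 982.4 CPM (WT-OGD), 1002, 1076 and 1051 (KO-OGD), 1258, 1099 and 1094 (WT-recovery) and 1310, 1428 and 1240 CPM (KO-recovery). Every recovery library was above every OGD library, with log2 changes of 0.23 ± 0.09 in WT (edgeR adjusted p = 0.0349) and 0.35 ± 0.09 in KO (adjusted p = 0.00356). In WT this call was lost in 9 of the 23 alternatives, among them library-size scaling, the replicate block and the omission of each of several libraries. Atp6v1g1, a subunit of the stalk, went from 165.1, 175.2 and 171.3 to 109.8, 114.5 and 110.9 CPM in WT (-0.61 ± 0.09, edgeR adjusted p = 4.32e-05) and from 215.2, 177.8 and 196.0 to 92.1, 115.0 and 104.2 in KO (-0.92 ± 0.09, adjusted p = 5.92e-07). Its groups were apart in both genotypes. The rotor subunit Atp6v1d and the regulatory subunit Atp6v1h fell in both genotypes by 0.34 to 0.65 on the log2 scale, and the stalk subunit Atp6v1e1 was called higher in WT (0.30) and not in KO (0.07).

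In the V0 sector, 1 of 5 members rose and 2 fell in WT, against 26.9% and 29.9% of all genes tested. In KO 1 rose and 3 fell, against 29.3% and 29.6%. Atp6v0d2, a form of subunit d known from osteoclasts and other macrophages, stood at 1764, 1847 and 1640 CPM (WT-OGD), 1784, 1670 and 1906 (KO-OGD), 1067, 1071 and 1130 (WT-recovery) and 1036, 1163 and 1097 CPM (KO-recovery). OGD and recovery libraries were clearly apart, by -0.68 ± 0.09 in WT (edgeR adjusted p = 1.19e-05) and -0.70 ± 0.09 in KO (adjusted p = 8.30e-06). Its broadly expressed counterpart Atp6v0d1 changed by -0.08 in WT, which did not pass, and by -0.23 in KO, a call that was lost in 11 of 23 alternatives.

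Atp6v0c, the proteolipid of the proton-carrying ring, went from 369.8, 326.5 and 361.1 to 255.1, 288.6 and 225.2 CPM in WT (-0.46 ± 0.10, edgeR adjusted p = 0.00157) and from 387.5, 403.0 and 413.4 to 245.6, 262.7 and 309.0 in KO (-0.56 ± 0.10, adjusted p = 3.03e-04). The groups did not overlap, but pseudogene copies of Atp6v0c may share its reads, which makes the level uncertain. Atp6v0e, a small membrane subunit, rose, from 152.0, 157.9 and 156.7 to 221.5, 210.8 and 219.1 CPM in WT (0.48 ± 0.08, edgeR adjusted p = 8.75e-05) and from 183.8, 177.2 and 182.5 to 195.4, 234.3 and 221.5 in KO (0.26 ± 0.08, adjusted p = 0.00935). The accessory subunits Atp6ap1 and Atp6ap2 passed in neither genotype, and Atp6ap1, which helps assemble the pump, stood at 481.1, 486.9 and 464.0 CPM in WT-OGD and 602.0, 521.6 and 489.4 in WT-recovery, at 500.8, 561.6 and 515.8 in KO-OGD and 555.1, 569.7 and 569.5 in KO-recovery.

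**Figure D4:**
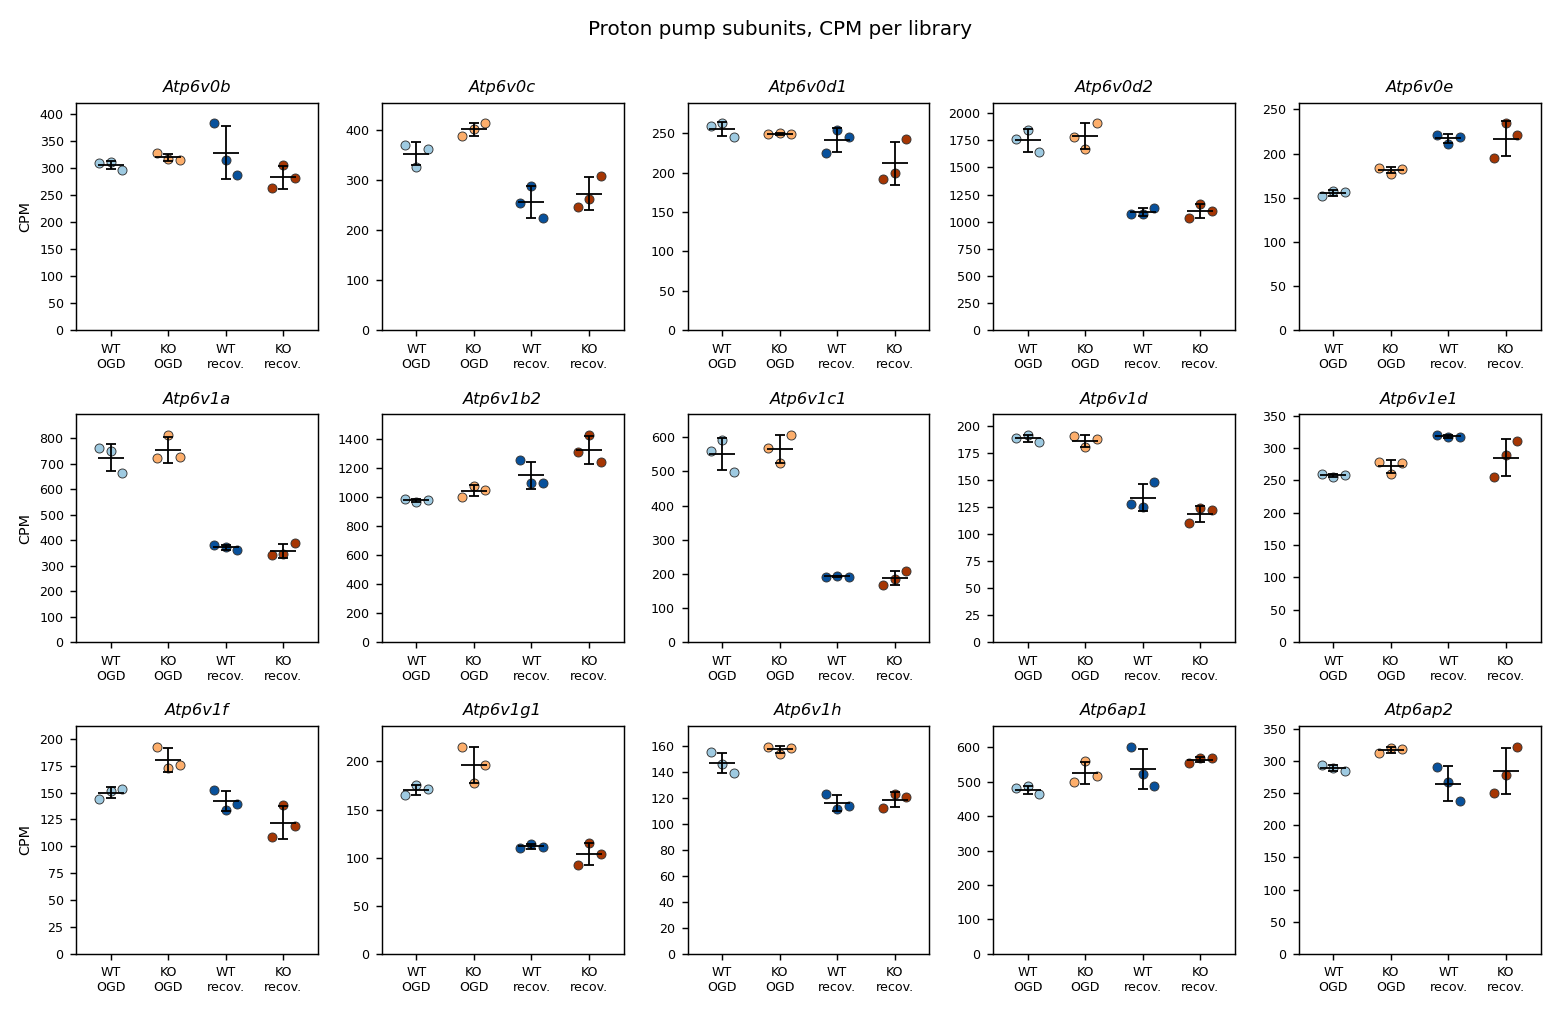
CPM of the 15 proton pump genes in each library (points), with group mean and SD in black, on separate axes that start at 0. Atp6v1c1 and Atp6v1a separate OGD from recovery widely, and Atp6v1b2 and Atp6v0e are higher after recovery.

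The next question was how loss of Slc2a5 bore on these genes at the end of OGD. Nearly all members were somewhat higher in KO, but 0 of 47 passed edgeR's quasi-likelihood test, against 7.49% of all genes tested, 0.966% upwards and 6.52% downwards. The log2 difference of KO over WT was positive for 44 of 47 members, with a median of 0.16, beside -0.01 over all genes, and it ranged from -0.20 for Ctsc to 0.46 for Ctsk. In CPM, all KO libraries lay above all WT libraries for 29 members and below for 1, against 13.2% and 17.2% of all genes tested, or 30.4% in either direction. Unadjusted, 13 members had p under 0.05, 12 upwards and 1 downwards, against 18.0% of all genes, and the smallest adjusted p of edgeR was 0.0700, for Hexa.

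Whether members passed depended on the fit. The same edgeR test on the 6 OGD libraries alone called 15 members higher and 1919 genes in all, against 1411 genes with all 12 libraries. DESeq2 called 8 members higher and 1769 genes in all, and leaving out KO-recovery replicates 1 and 3, whose spread enters the shared estimate, called 8 higher and 1797 genes in all. Leaving out KO-recovery replicate 3 alone gave 5, KO-recovery replicate 2 gave 3 and WT-recovery replicate 1 gave 1. No alternative called a member lower. With size factors by relative log expression, 35 members had all KO libraries higher and 0 lower, against 18.4% and 14.5% of all genes. With scaling by library size alone, which moves the median of all genes to -0.14, 14 were higher and 6 lower, against 3.76% and 33.3% of all genes, with a median of 0.03 over the members.

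By role, the shift was widest in the cathepsins (median log2 difference 0.26) and the membrane proteins and cofactors (0.19), followed by the other hydrolases (0.16), and smaller in the pump (0.09) and the transcription factors (0.09). Ctsa, a serine carboxypeptidase that also protects Glb1 and Neu1, stood at 1504, 1608 and 1547 CPM (WT-OGD) and 2012, 1983 and 2003 CPM (KO-OGD). These groups were well apart, yet the log2 difference of 0.36 ± 0.16 had an edgeR adjusted p of 0.25, with the spread estimated over all 12 libraries. The summed level of the 47 members was 82830 to 83820 CPM in WT-OGD and 95410 to 102400 in KO-OGD, without overlap. All 9 astrocyte markers tested were lower in KO-OGD, with a summed level of 54.4 to 75.1 CPM against 127 to 183 in WT-OGD and none of the 9 at 0 in any library. The summed level of the microglia markers was 3302 to 3347 CPM in WT-OGD and 3723 to 4071 in KO-OGD, with 0 of 12 called higher and 1 lower. The part of these cell type markers in the shift of the members was not tested.

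After recovery, KO exceeded WT in 6 of the 47 members and was below it in 0, against 22.2% of all genes tested, 10.1% upwards and 12% downwards. The 6 were the cathepsins Ctsk, Ctsl and Ctsa, the hydrolase Tpp1, and the factors Mitf and Tfe3. All KO libraries lay above all WT libraries for 5 members and below for 3, against 16.4% and 17.2% of all genes, or 33.5% in either direction. None of the 6 membrane proteins and cofactors and none of the 15 pump genes passed. The median log2 difference of the members was 0.07, beside 0.01 over all genes, and 0.21 in the cathepsins against -0.04 in the pump.

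Mitf was higher in KO by 0.82 ± 0.12 on the log2 scale (edgeR adjusted p = 3.62e-04) and Ctsl by 0.64 ± 0.15 (adjusted p = 0.00705). For both genes all 3 KO libraries lay above all 3 WT libraries, and both calls held in all 23 alternatives, with a range of 0.71 to 0.93 for Mitf and 0.50 to 0.88 for Ctsl. Tfe3 was higher by 0.40 ± 0.10 (edgeR adjusted p = 0.0110), without overlap, but the call was lost without WT-recovery replicate 2 or KO-recovery replicate 2. Tfe3 lies on the X chromosome, and of the other X-linked members Lamp2, Atp6ap1 and Atp6ap2 differed by 0.07 to 0.10 and did not pass. Xist was near 0 in WT-recovery and not in KO-recovery, and its part in the difference of Tfe3 was not tested.

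The remaining 3 calls were each lost when certain single libraries were left out, and each was also lost with only the 6 recovery libraries compared. Ctsk was higher by 0.97 ± 0.25 (edgeR adjusted p = 0.0174), but its KO libraries stood at 37.97, 17.6 and 33.0 CPM and the second overlapped WT-recovery replicate 1 at 20.3. The 2 higher libraries were KO-recovery replicates 1 and 3, which hold the muscle, cartilage and connective tissue transcripts, and without them the difference was 0.21 with an edgeR adjusted p of 0.557. Of the 8 markers of those tissues, 5 were called higher in KO after recovery, at a summed level of 16.0 to 274 CPM against 18.5 to 64.2 in WT, with Lum at 0 in WT-recovery replicates 2 and 3 and no marker at 0 in KO. Ctsa was higher by 0.52 ± 0.16 (edgeR adjusted p = 0.0319), at 1748, 1259 and 1347 CPM in WT and 2152, 2609 and 1499 in KO, and Tpp1 by 0.32 ± 0.10 (adjusted p = 0.0381), at 493.1, 399.0 and 407.8 CPM in WT and 551.7, 595.7 and 477.2 in KO. KO-recovery replicate 3 was the lowest KO library of both and overlapped WT-recovery replicate 1, the highest WT library. Without KO-recovery replicate 2 the differences were 0.33 and 0.24 and neither passed.

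The count of calls after recovery moved with single libraries too. The number of all genes called was 4175 with every library, and it moved as well. The members called were 14 without WT-recovery replicate 1, all higher in KO (4160 of all genes), 15 without KO-recovery replicate 3, of which 13 higher and 2 lower (5279), 2 without WT-recovery replicate 2 (2653), and 3 without WT-recovery replicate 3 (3149) or KO-recovery replicate 1 (2969). Astrocyte markers were again lower in KO, 7 of 9 by the test, at a summed level of 80.6 to 120 CPM against 166 to 190 in WT, and their part was not tested.

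**Figure D5:**
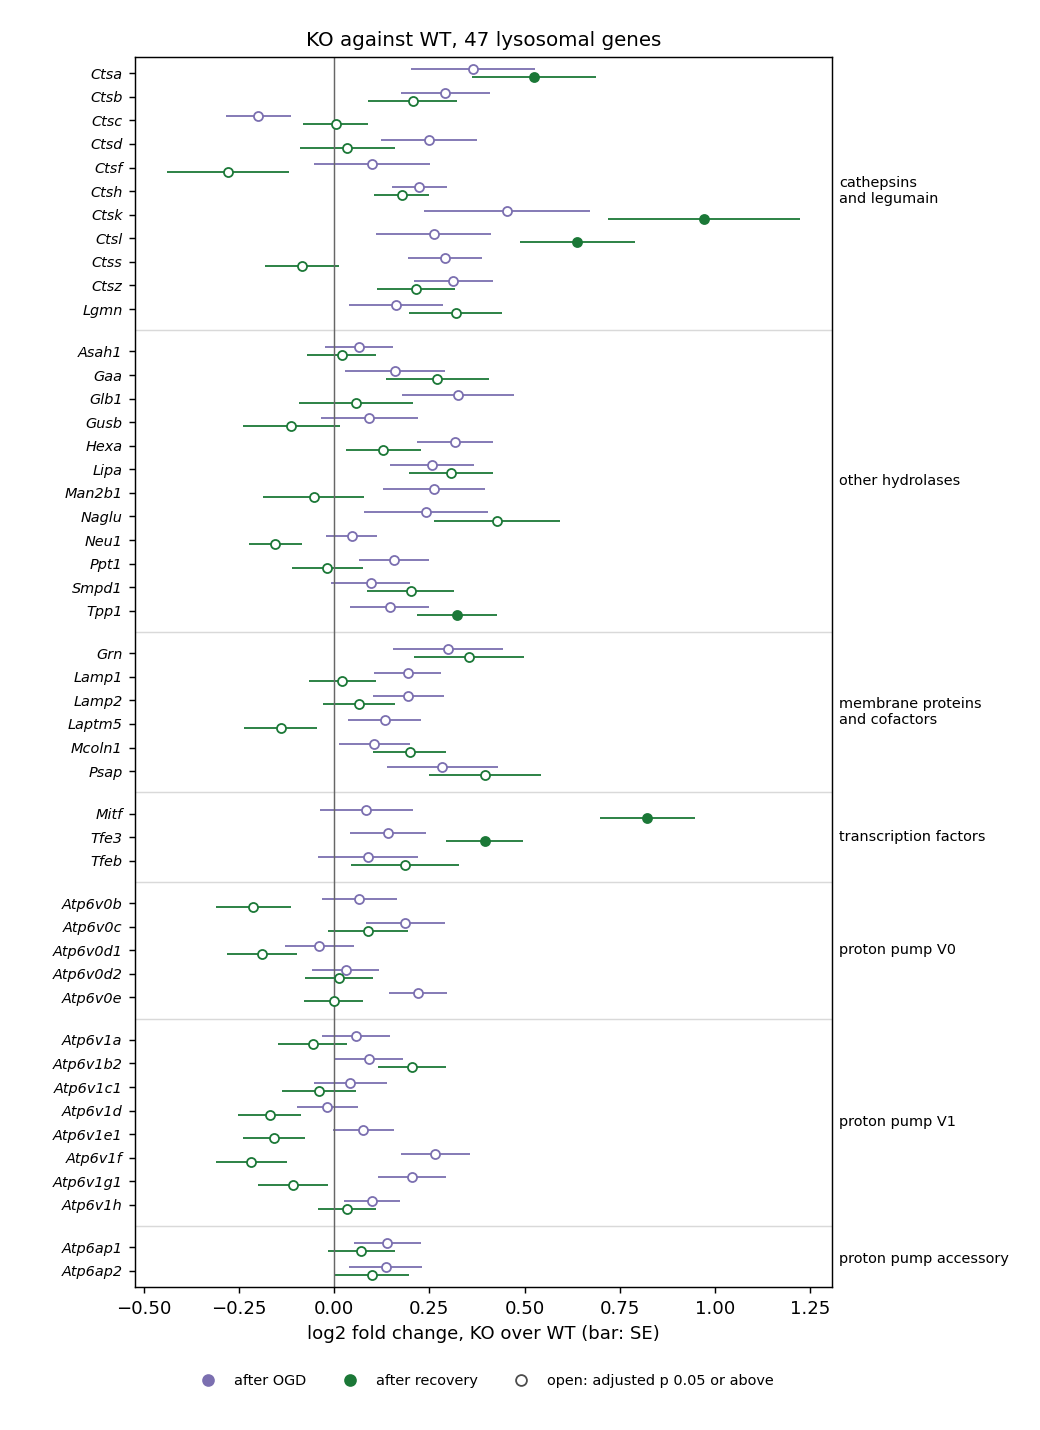
Log2 fold change of KO over WT for each of the 47 genes, in rows by role, after OGD (purple) and after recovery (green), with bars of 1 standard error and filled points where the adjusted p was below 0.05. After OGD 44 points lie right of 0 and none is filled, and after recovery 6 are filled, among them Ctsk, Mitf and Ctsl.

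The libraries differed within 3 of the 4 groups in a way that many members shared. WT-recovery replicate 1 was the highest of its group in 34 of the 47 members (72.3%), against 36.6% of the 19123 genes at 10 counts in 3 libraries, and it had the highest mitochondrial share, 18.4% of counts against 7.35% in replicate 2. In KO-recovery, replicate 2 was the highest in 31 of 47 members (66.0%) against 35.9% of the genes, and its mitochondrial share of 10.5% was also the highest of its group (8.23% and 4.72% in the others). Glb1, for example, stood at 279.6, 194.5 and 195.0 CPM (WT-recovery) and 238.4, 275.0 and 182.4 CPM (KO-recovery). This pattern was chosen after the values were seen, and the part of RNA quality in it was not tested. In the WT-OGD group each library was the highest for 15 or 16 members. In KO-OGD, replicate 2 was the highest in 28 members (59.6%, against 40.2% of the genes), and there it had the lowest mitochondrial share of its group, 4.20%.

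The change from OGD to recovery differed between genotypes, by the interaction test, in 2 of 47 members, 1 upwards and 1 downwards, against 5.25% of all genes tested, 2.89% upwards and 2.36% downwards. Mitf rose more in KO than in WT, by 0.74 ± 0.17 on the log2 scale (edgeR adjusted p = 0.0254). Atp6v1f (chromosome 6, 29467718 to 29470512), a small V1 subunit, went from 144.1, 151.9 and 153.6 to 152.0, 133.6 and 139.7 CPM in WT, which overlapped, and from 192.6, 172.5 and 175.6 to 108.3, 138.5 and 119.1 in KO, which did not. Its interaction was -0.48 ± 0.13 (edgeR adjusted p = 0.0444). Neither call was stable: with 1 library left out the number of members called ranged from 0 to 3, and it was 0 when replicate 1 or 3 of either OGD group, or replicate 1 or 2 of WT-recovery, was left out. It was 1 when WT-OGD replicate 2, WT-recovery replicate 3 or KO-recovery replicate 1 was left out, 3 for KO-recovery replicate 2 or 3, and 1 with the replicate block. The interaction of Mitf nevertheless stayed between 0.62 and 0.89 over the alternatives, with edgeR or DESeq2 adjusted p of at most 0.0798. WT-OGD and the other groups enter several of these comparisons, so the comparisons are not independent of each other.

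The wider list of lysosomal genes held 108 others, of which 101 were tested. On recovery 18 rose and 48 fell in WT and 18 rose and 50 fell in KO, against 26.9% and 29.9% of all genes in WT and 29.3% and 29.6% in KO. After OGD 2 were higher and 2 lower in KO, against 0.966% and 6.52% of all genes, and after recovery 24 were higher and 11 lower, against 10.1% and 12%. Naaa, an acid amidase of lipid amides, was at 72.1 ± 7.80 CPM in WT-OGD and 206 ± 10.1 in WT-recovery (mean ± SD, n = 3), a rise of 1.52 on the log2 scale, and rose by 1.34 in KO. Atp6v0a4, a form of the V0 subunit a, rose by 3.98 in WT from 0.19 ± 0.12 CPM, but its exons overlap D630045J12Rik on the same strand and Tmem213 on the other, so its values are uncertain. Lamtor4, of the Ragulator complex that docks mTORC1 at the lysosome, rose by 1.48 in WT and 1.21 in KO. Mcoln3, a channel related to Mcoln1, fell from 37.3 ± 1.64 to 5.68 ± 0.35 CPM in WT, and in KO the log2 change was -3.26. Cst6, a cystatin inhibitor at under 1 CPM in every group mean, fell by 2.39 and 2.44. Rnaset2a, an acid ribonuclease, fell by 2.21 and 2.35 but has a near-identical copy, Rnaset2b, that may share its reads. Atp6v1c2, an alternative form of subunit C, rose by 1.36 in KO, from 0.35 ± 0.14 to 0.90 ± 0.39 CPM.

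Members of the list that control Tfeb or dock mTORC1, 18 in all, fell in 11 cases and rose in 4 in WT, and fell in 10 and rose in 4 in KO, against 29.9% of all genes down and 26.9% up in WT and 29.6% and 29.3% in KO. Fnip2, Flcn, Fnip1 and Rragd, which act together in the Folliculin and Rag GTPase branch that governs Tfeb and Tfe3, had log2 changes of -2.05, -1.46, -1.44 and -1.74 in WT and -1.71, -1.38, -1.31 and -2.22 in KO, and were named after their values were seen. Tfec, another member of the family, rose by 1.24 and 1.09 and was chosen the same way. All 10 of these values had an edgeR adjusted p of at most 1.65e-07. The 18 did not all fall, and Lamtor4, named above, rose the most of them, by 1.48 in WT and 1.21 in KO.

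Between genotypes, Creg1, a lysosomal glycoprotein, and the channel Mcoln2 were higher in KO after OGD by 0.42 and 0.39, and Epdr1 and Atp6v0e2 lower by -1.72 and -0.90, all past edgeR's test. After recovery Cd68, the macrophage lysosomal glycoprotein, was at 1226 ± 104 CPM in WT and 1924 ± 338 in KO (log2 difference 0.65, edgeR adjusted p = 0.00122), and Rptor, of mTORC1, and Scpep1, a carboxypeptidase, were higher by 0.59 and 0.58. Epdr1 and Atp6v0e2, a form of Atp6v0e found mainly in brain, were lower by -2.76 and -1.70, at 1.09 ± 0.34 and 4.76 ± 1.40 CPM in KO against 7.20 ± 2.07 and 15.6 ± 1.44 in WT. Atp6v0a4 was lower by -2.85 at 0.48 ± 0.30 CPM in KO and 3.25 ± 0.47 in WT, with the same overlaps.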

How the data were processed

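RNA was sequenced in 12 libraries of cultured mouse microglia. The deposited table holds whole-number counts of reads per gene, which the authors made by aligning to GRCm38 with HISAT2 and counting with featureCounts, per the submitters' processing notes. Versions, strand and multi-mapping options are not given in the sources used here, the kit marks strand, and the labels name both polyA RNA and a total RNA kit. Genes were matched to GENCODE symbols by identifier. From the counts, genes kept by filterByExpr were scaled by TMM and tested with edgeR 4.0.16 (R 4.3.3, robust quasi-likelihood fit, 1 mean per group, all 12 libraries, Benjamini-Hochberg adjustment over 18842 genes, threshold 0.05). The fit was also run on simulated counts drawn with the same spread in every library. That run cannot check how the fit does where groups differ in spread. CPM use TMM-scaled library sizes. Alternatives were RLE and library-size scaling, other filters, DESeq2 1.42.0, equal depth, a replicate block, only the libraries compared, and leaving out mitochondrial genes or libraries. Figures were drawn with matplotlib 3.10.9.

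In each comparison and role, up to 3 called members with the largest change, all 3 transcription factors and the member with the highest level per length are given in full, and up to 3 called genes per direction of the wider lysosomal list are named. Members and lists were chosen with earlier results of these data known. Exons of Glb1 overlap Tmppe on the same strand, and exons of Ctsa, Ctsb, Ctsz, Hexa, Ppt1, Lamp1, Grn, Atp6v0b, Atp6v1e1 and Atp6v1h overlap a gene on the other strand, so their counts are uncertain. The labels do not say that replicate numbers pair libraries. Same-numbered replicates did not deviate together (correlations of -0.259 to 0.186 across genes), but with 3 libraries per group this cannot exclude a pairing. The common biological coefficient of variation was 0.119.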

Additional observations from a re-analysis of the deposited data

Results flagged for a closer look

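In these genes the change from OGD to recovery differed between KO and WT by the interaction test (edgeR, adjusted p below the threshold of 0.05), with the difference of the log2 changes given as KO less WT. Among the 47 members, Mitf stood at 0.737 and Atp6v1f at -0.484. Among the other lysosomal genes, Hgsnat, the membrane acetyltransferase of heparan sulfate degradation, stood at -1.235, with mean levels of 365 CPM in WT-OGD, 394.0 in KO-OGD, 394 in WT-recovery and 180.5 in KO-recovery (n = 3 each). Its edgeR adjusted p was 1.27e-04, and it was lower in KO after recovery by -1.12 and differed by 0.11 at the end of OGD, which did not pass (adjusted p = 0.61). Hyal2, a hyaluronidase, stood at -0.611, Ggh, which trims folate polyglutamates, at -0.577, and Siae, a sialic acid esterase, at 0.449, each with an edgeR adjusted p between 0.0441 and 0.0452. Atp6v0a4 stood at -2.789 and has overlapping genes on both strands. Atp6v0a4, Siae and the others were not followed through the alternatives.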

How the results depend on the processing

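Recovery against OGD called 31 members in WT and 32 in KO, and 29 to 32 and 28 to 32 under the alternatives that keep every library or leave out KO-recovery replicates 1 and 3; with 1 library left out the counts were 25 to 33 and 30 to 34. KO against WT after OGD called 0, and 2 with RLE size factors, 4 without mitochondrial genes, 5 with no filter, 8 with DESeq2, 15 with only the 6 libraries compared, 8 without KO-recovery replicates 1 and 3, and 0 to 5 with 1 library left out. KO against WT after recovery called 6, and 10 with library size only, 12 with no filter, 11 with DESeq2, 3 with only the 6 libraries compared, 10 without KO-recovery replicates 1 and 3, and 2 to 15 with 1 library left out. The interaction called 2, and 1 with library size only, 4 with DESeq2, 3 with no filter and 0 to 3 with 1 library left out. With the replicate block the counts were 0, 6, 30 in WT, 32 in KO, and 1 for the interaction. There the call of Atp6v1f was lost, and the labels do not say that the numbers pair the samples. Leaving out Gm49369, chosen after seeing the data, gave 0, 7, 31, 32 and 2. No log2 change of a called member reversed under any alternative. The cause of these shifts was not tested. Recovery libraries were shallower, down to 9885259 counts, which limits low genes most.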
